A study of Mus musculus with 8 samples.

Results

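The comparison described here is the change with feeding time that both diets share: 24 weeks set against 12 weeks of feeding, 4 arrays against 4, in cells grown from mouse subcutaneous fat. C57BL/6 males aged 6 weeks were given a diet with 60% fat or chow, so the mice were 30 weeks old after 24 weeks and 18 weeks old after 12 weeks. The 4 groups had 2 arrays each: high-fat diet for 24 weeks (HF24), chow for 24 weeks (C24), high-fat diet for 12 weeks (HF12) and chow for 12 weeks (C12). Abdominal subcutaneous fat was digested with collagenase, and the cells that stuck to plastic were passaged 2 or 3 times and used as adipose-derived mesenchymal stem cells, a cultured stromal population. The labels give no genetic change, no passage number for each sample and no word on whether the 2 arrays within a group are from different mice or cultures, so a p-value reflects array-to-array spread that could be technical in origin. Of 29585 features tested, of which 16732 had a gene symbol, 6925 were called in the same direction over both diets together and on each diet alone, and these are the members described.

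Levels are log2 of the processed intensity minus the array's 75th percentile, so 0 is a bright probe and a change of 1 is 2-fold; they compare arrays for 1 probe, never 1 gene with another. A change is 24 minus 12 weeks on that scale, with its standard error (SE) from a limma fit to all 8 arrays, and a call is a limma adjusted p under 0.05. On the slide, all 24-week arrays lay in row 2 and all 12-week arrays in row 1, so feeding time and slide row cannot be told apart in any result; age moves with feeding time in the same way. Brightness near the floor also moved with time. Probes well above background made up 57.6% to 62.4% on the 24-week arrays against 65.1% to 67.2% on the 12-week arrays, and the background noise of the arrays was 5.95 to 7.41 against 4.03 to 4.42 intensity units. Of the 6925 members, 6020 were above background on all 8 arrays, and 6306 (91.1%) were called the same way again after all values were raised to 1 common floor, an alternative chosen after seeing the data.

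Subcutaneous fat holds stromal progenitors that can become adipocytes under the nuclear receptor PPARG and the factor CEBPA, next to vessels, immune cells and, at its border, muscle. In culture these progenitors secrete cytokines and matrix, and stromal cells keep a pattern of Hox and other homeobox genes that reflects the body site they came from. Loss of adipocyte genes, induction of the cyclin-dependent kinase inhibitors and release of inflammatory cytokines are among the features followed in such cells with age, and the study's title places it in that field. All 23 measured stromal markers, such as Thy1, Pdgfra and Cd44, were above background in every group. So were 24312 of the 29585 features and all 15 measured endothelial genes, so this cannot serve as a check of the label. Markers of adipocytes, skeletal muscle, macrophages, mast cells, endothelium, pericytes and epithelium were measured too, and their levels are given beside the results. In RNA from a whole culture, fewer cells of a type and less RNA per cell cannot be told apart.

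Over both diets together 16202 features were called (54.8%), 8009 higher at 24 weeks (27.1%) and 8193 lower (27.7%). On the high-fat diet alone 13856 were called (46.8%), and on chow alone 13642 (46.1%); these comparisons share no array, though they share 1 estimate of the spread. The 6925 features called the same way on both diets were 23.4% of those tested, 49.98% of the calls on the high-fat diet and 50.8% of the calls on chow. They comprised 3732 higher at 24 weeks (12.6%) and 3193 lower (10.8%), and each list count of such members below is to be read beside these shares. A further 1668 features were called in opposite directions on the diets, which is 12.0% of the high-fat calls and 12.2% of the chow calls. Across all features the changes on the diets correlated at Pearson r = 0.50 and Spearman rho = 0.41, as a description of features measured on the same slide. The 4 arrays at 24 weeks lay wholly above or wholly below the 4 at 12 weeks in 30.9% of all features, 17.1% above and 13.8% below.

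Sizes are given for the members above background on all 8 arrays, since a gene that passed through the brighter time alone had to differ. Their median change was 0.48 among 3578 higher members and −0.69 among 2442 lower ones, and the farthest named genes were Acod1 at 5.94 and Car3 at −7.74. Among the members above background on all 8 arrays, 356 lower and 252 higher ones changed at least 2-fold on each diet. Over all members, which include genes that passed through the brighter time alone, it was 1137 members, 778 lower and 359 higher. The size of the change differed between the diets, by the test of the difference itself, in 1998 members (28.9%), against 29.9% of all features. Of these, 876 had the larger change on the high-fat diet and 1122 on chow. At the threshold, 2310005E17Rik (change −0.39, largest limma adjusted p 0.04999) and Rps15a (0.24, 0.04998) were just inside, and Cmtm2b (0.86, 0.05002) and Ppp3ca (0.19, 0.05003) just outside.

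**Figure D1:**
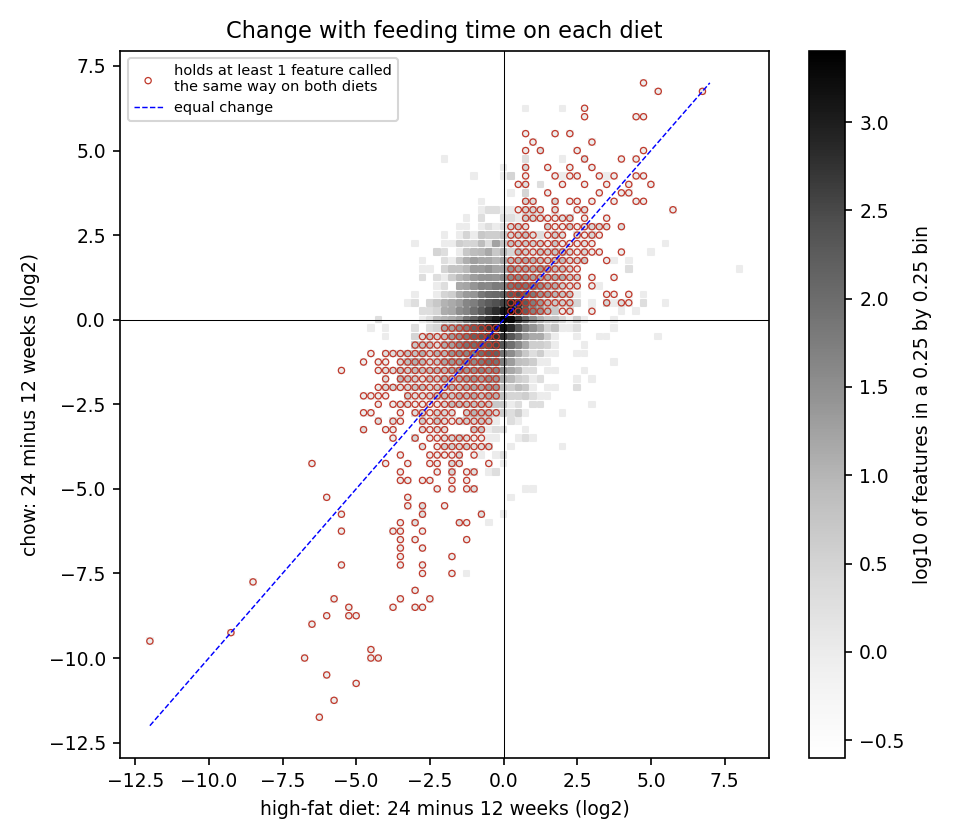
Change with feeding time (24 minus 12 weeks, log2) on the high-fat diet (x axis) and on chow (y axis) for 29585 features, counted in bins of 0.25 by 0.25; grey darkens with the number of features, and red circles mark bins that hold at least 1 of the 6925 members. The farthest bins at the lower left hold adipocyte and Mup genes, and those at the upper right hold Hoxc11, Acod1 and Hoxc10.

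Most genes of the mature adipocyte fell on both diets. Of 24 measured members of that list, 17 were lower at 24 weeks on both diets and 0 higher, with a median change of −1.94 against −0.01 over all features. The count was 11 when genes had to be above background on all arrays, a filter that removes those that fell below it. The median was −1.24 on the high-fat diet and −3.001 on chow. Adiponectin, the adipocyte hormone Adipoq, had levels of −5.83 and −5.77 in HF24, −2.52 and −2.38 in C24, 3.41 and 3.40 in HF12, and 6.67 and 6.79 in C12. It was not well above background on either HF24 array, so its fall on the high-fat diet was at least 303-fold; on chow, where all arrays were above background, it fell 581-fold. Cfd, the adipocyte-derived complement factor D, had levels of −7.05 and −6.38 in HF24, −1.14 and −0.97 in C24, 5.37 and 5.40 in HF12, and 8.38 and 8.43 in C12. Both HF24 arrays were again not above background, and the fall on the high-fat diet was at least 1198-fold; on chow, with all arrays above background, the measured fall was 705-fold. Here and below, "at least" sets the brighter group's mean against the lowest signal well above background on the dim arrays.

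The same order of groups, highest in C12, then HF12, with both 24-week groups below, was seen for genes of lipid storage. Plin1, which coats the lipid droplet, had levels of −4.45 and −4.62 in HF24, −2.86 and −3.05 in C24, 1.07 and 1.12 in HF12, and 4.35 and 4.40 in C12, a change of −6.48 ± 0.06 (SE; limma adjusted p = 2.14e-07). Car3, a carbonic anhydrase abundant in adipocytes, had levels of −2.75 and −3.27 in HF24, −1.53 and −1.83 in C24, 3.55 and 3.44 in HF12, and 7.31 and 7.29 in C12. In both genes the 4 arrays at 24 weeks lay below all 4 arrays at 12 weeks, and HF24 lay below C24. Adig (adipogenin) changed by −6.91 ± 0.04 (SE; limma adjusted p = 5.39e-08), Cidec, which fuses lipid droplets, by −4.72 ± 0.04 (SE; limma adjusted p = 1.55e-07), and Gpd1, which makes the glycerol backbone of triglyceride, by −4.25 ± 0.07 (SE; limma adjusted p = 8.66e-07). Adrb3, the beta-3 adrenergic receptor of adipocytes, was not above background in HF24 and fell there at least 89.6-fold, against a measured 1084-fold on chow. Summed over the 24 genes on the linear scale, where 1 is the array's 75th percentile, the list stood at 190 to 194 on the HF24 arrays, 234 to 235 on C24, 354 to 373 on HF12 and 1463 to 1467 on C12.

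Among 26 upstream regulators of adipogenesis 8 were lower on both diets, against 10.8% of all features. The median change of the list was −0.17 over both diets, but 0.12 on the high-fat diet and −0.32 on chow. The 4 that were higher are a share near the 12.6% of all features. Cebpa had levels of 1.22 and 1.07 in HF24, 1.05 and 1.29 in C24, 2.67 and 2.63 in HF12, and 3.25 and 3.43 in C12, and the change was −1.84 ± 0.08 (SE; limma adjusted p = 1.65e-05). Pparg had levels of 3.09 and 3.10 in HF24, 2.86 and 2.88 in C24, 3.39 and 3.43 in HF12, and 4.77 and 4.81 in C12, so all 24-week arrays were below all 12-week arrays, but by little on the high-fat diet: the change was −0.31 on the high-fat diet and −1.92 on chow. The coactivator Ppargc1a, a driver of mitochondrial and brown fat genes, was not above background in HF24 and fell at least 8.93-fold there, against a measured 26.2-fold on chow. Those higher at 24 weeks were Gata2, Gata3, Cebpb and Klf2.

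**Figure D2:**
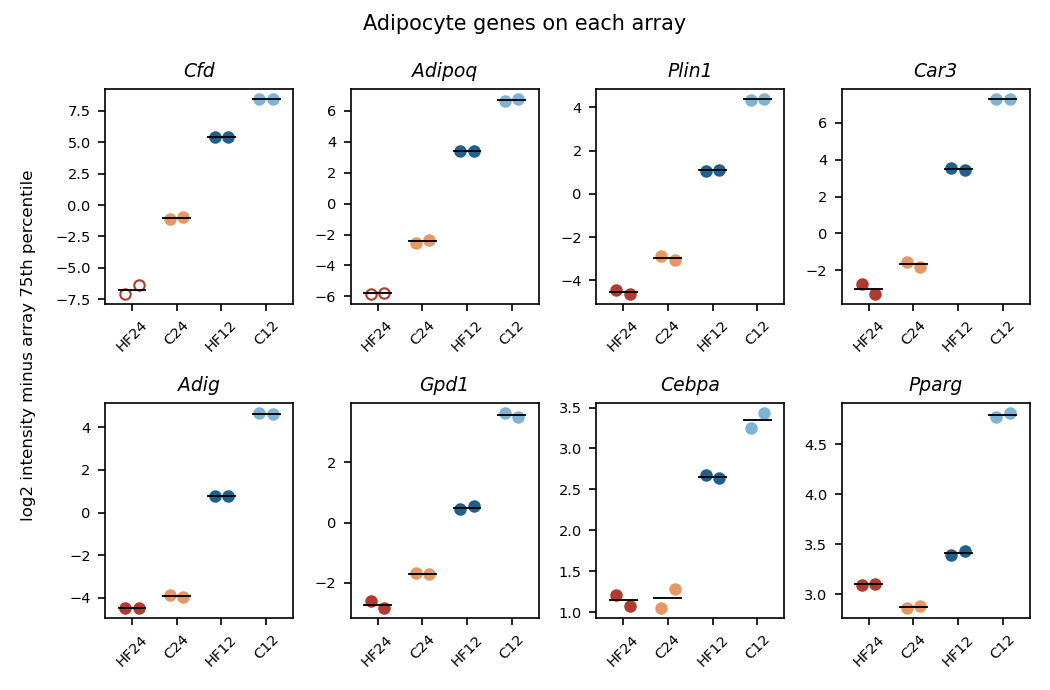
Levels of 8 adipocyte genes (log2 intensity minus the array's 75th percentile) on each array of HF24, C24, HF12 and C12; bars mark group means, and open circles are arrays on which the probe was not well above background. In each panel the 4 arrays at 24 weeks lie below the 4 arrays at 12 weeks, with C12 highest.

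The major urinary proteins, lipocalins that carry pheromones and are best known from liver, fell too. Of 11 Mup genes measured, 9 were lower on both diets and 0 higher. Mup1 had levels of −6.97 and −7.14 in HF24, −7.16 and −7.29 in C24, −0.89 and −0.81 in HF12, and 4.43 and 4.48 in C12; neither 24-week group was above background, and the fall was at least 15.9-fold on the high-fat diet and 737-fold on chow. Mup18 gave at least 13.1-fold and 595-fold. Mup genes are near-identical copies, so the signal cannot be assigned to 1 of them.

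Among homeobox genes the direction followed the place in the cluster. Hox genes are numbered along their 4 clusters, low numbers acting toward the head and high numbers toward the tail and the limb ends. Of 11 measured genes with paralogue numbers 9 to 13, 7 were higher on both diets and 1, Hoxd9, was lower. Of 21 with numbers 1 to 8, 7 were lower and 1 was higher. The lists were split at this number after their values were seen. Among all features 12.6% were higher on both diets and 10.8% lower. Over all 32 Hox genes 8 were higher and 8 lower, the lower count falling to 5 without HF12 replicate 2 or without HF24 replicate 1; the higher count was 5 among genes above background on all arrays.

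The levels of Hoxc11 were −1.15 and −1.23 in HF24, −1.07 and −1.01 in C24, −8.05 and −7.81 in HF12, and −7.93 and −7.77 in C12, and neither 12-week group was above background, so the rise was at least 23.3-fold on the high-fat diet and 24.4-fold on chow. The neighbouring Hoxc10 had levels of 0.12 and 0.03 in HF24, −0.11 and 0.19 in C24, −4.59 and −4.97 in HF12, and −6.64 and −7.07 in C12. It was above background on both HF12 arrays and on neither C12 array, and rose 28.9-fold on the high-fat diet and at least 51.6-fold on chow. Hoxa11 was above background on all 24-week arrays and on 1 of 4 at 12 weeks, with a rise of at least 10.6-fold on the high-fat diet. On chow the fitted rise was 12.2-fold, with 1 of the 2 C12 arrays not above background. Hoxa10 had levels of 1.26 and 1.29 in HF24, 1.26 and 1.18 in C24, −1.91 and −1.74 in HF12, and −1.06 and −1.26 in C12, a change of 2.74 ± 0.07 (SE; limma adjusted p = 2.96e-06). Hoxc9, next in the HoxC cluster, changed by 0.80 ± 0.05 (SE; limma adjusted p = 0.00011). In each of these genes all 24-week arrays lay above all 12-week arrays.

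The anterior members fell by smaller steps. Hoxa5 had levels of −2.07 and −1.99 in HF24, −2.18 and −2.06 in C24, −1.65 and −1.59 in HF12, and −1.40 and −1.41 in C12, a change of −0.56 ± 0.05 (SE; limma adjusted p = 0.000267). Hoxc5 changed by −0.66 ± 0.04 (SE; limma adjusted p = 6.5e-05) and Hoxa2 by −1.04 ± 0.05 (SE; limma adjusted p = 1.98e-05). No array at 24 weeks reached the lowest 12-week array in these 3 genes. On the same arrays, then, Hoxc9, Hoxc10 and Hoxc11 were higher while Hoxc4 and Hoxc5, of the same cluster, were lower.

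Of 30 other positional transcription factors 6 were higher and 7 lower, against 12.6% and 10.8% of all features. Pitx1, which specifies the hindlimb, had levels of −0.06 and −0.21 in HF24, −0.75 and −0.75 in C24, −3.03 and −3.08 in HF12, and −5.09 and −5.37 in C12, a change of 3.70 ± 0.07 (SE; limma adjusted p = 1.55e-06). Zic1, a midline and paraxial factor, went the other way with −4.02 and −3.65 in HF24, −4.01 and −4.07 in C24, −0.15 and −0.05 in HF12, and −0.65 and −0.58 in C12, a change of −3.58 ± 0.09 (SE; limma adjusted p = 2.96e-06). Tbx5, which specifies the forelimb, changed by −0.94 ± 0.08 (SE; limma adjusted p = 0.000286). Tbx4, its hindlimb counterpart, changed by −0.75 ± 0.09 (SE; limma adjusted p = 0.000972), so the 2 hindlimb genes Pitx1 and Tbx4 moved in opposite directions. Tbx4 did not keep its call on both diets when C12 replicate 1 was left out (largest limma adjusted p = 0.122) or either C24 array (0.0608 and 0.127), nor without C12 replicate 2 (0.0821).

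**Figure D3:**
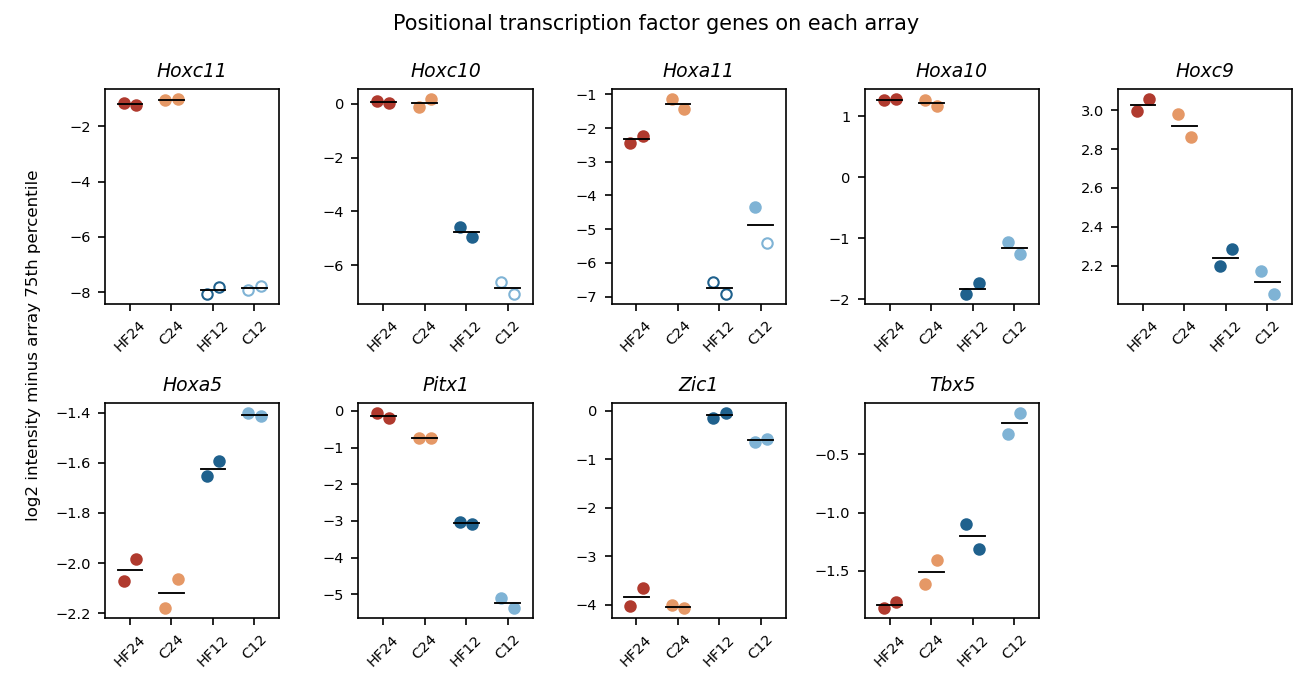
Levels of 9 positional transcription factor genes (log2 intensity minus the array's 75th percentile) on each array of HF24, C24, HF12 and C12, with group means as bars and open circles where the probe was not well above background. Hoxc11, Hoxc10, Hoxa11, Hoxa10, Hoxc9 and Pitx1 are higher, and Hoxa5, Zic1 and Tbx5 lower, on all 24-week arrays than on any 12-week array.

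Markers of other cell types moved along with time. Of 18 skeletal muscle genes, 16 were lower on both diets and 1 (Actc1) higher, with a median of −2.16. Their summed level was 80.3 to 80.8 on the HF24 arrays, 164 to 166 on C24, 304 to 314 on HF12 and 365 to 381 on C12. Tnnc2, the troponin C of fast muscle, had levels of 2.37 and 2.40 in HF24, 4.83 and 4.77 in C24, 5.82 and 5.97 in HF12, and 6.46 and 6.53 in C12, and Sln (sarcolipin), a small regulator of the muscle calcium pump that is not on the list, changed by −4.11 ± 0.05 (SE; limma adjusted p = 5.77e-07). The satellite cell factor Pax7, 1 of the 16 lower, was above background in C12 alone, so its call on the high-fat diet rests on signals near the floor. Ckm, also among the 16, was not above background in HF24. The part of these cells in the falls given above was not tested.

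Mast cell genes rose on both diets. All 8 measured (Kit, Cpa3, Mcpt4, Tpsb2, Cma1, Fcer1a, Ms4a2 and Hdc) were higher at 24 weeks, by 1.36 to 3.17. They belong to a list of 15 neutrophil and mast cell genes, of which 9 were higher, and were separated from it after their values were seen. Of the 7 neutrophil genes Mpo alone was called the same way on both diets. Mcpt4, a mast cell chymase, had levels of 4.06 and 3.98 in HF24, 3.72 and 3.85 in C24, 0.76 and 0.79 in HF12, and 0.98 and 1.098 in C12, a change of 2.996 ± 0.05 (SE; limma adjusted p = 1.1e-06). Cpa3, mast cell carboxypeptidase, had levels of 2.06 and 2.01 in HF24, 1.78 and 2.03 in C24, −0.96 and −0.98 in HF12, and −1.03 and −0.84 in C12. The change of Hdc, which makes histamine, was 3.17 ± 0.08 (SE; limma adjusted p = 2.73e-06), that of Cma1 2.91 ± 0.04 (SE; limma adjusted p = 8.01e-07) and that of the IgE receptor chain Fcer1a 2.48 ± 0.07 (SE; limma adjusted p = 5.37e-06). The 8 genes summed to 36.2 to 37.8 in HF24, 30.9 to 33.6 in C24, 4.50 in both HF12 arrays and 5.46 to 5.88 in C12.

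Most vessel genes on the lists rose as well. Of 15 endothelial genes 12 were higher on both diets and 0 lower, with a median of 1.06 and summed levels of 82.5 to 85.0 in HF24, 67.4 to 70.4 in C24, 31.0 to 32.2 in HF12 and 39.8 to 41.1 in C12. The junction protein Pecam1 had levels of −0.27 and −0.25 in HF24, −0.47 and −0.47 in C24, −1.44 and −1.40 in HF12, and −1.48 and −1.37 in C12, and Cldn5, claudin of tight junctions, changed by 1.87 ± 0.06 (SE; limma adjusted p = 5.92e-06). Of 10 pericyte genes 7 were higher and 1 (Steap4) lower, a count of 4 higher when each diet was fitted on its own arrays. Rgs5 had levels of 1.32 and 1.30 in HF24, 0.69 and 0.86 in C24, −1.25 and −1.37 in HF12, and −1.63 and −1.63 in C12, a change of 2.51 ± 0.06 (SE; limma adjusted p = 2.14e-06), and Ndufa4l2 changed by 2.34 ± 0.04 (SE; limma adjusted p = 1.01e-06). Pericyte sums were 62.5 to 63.2 in HF24, 49.46 to 49.96 in C24, 30.6 to 31.5 in HF12 and 33.2 to 33.7 in C12. The part of vessel cells in other results was not tested.

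Of 9 measured epithelial genes 5 were higher and 1 (Trp63) lower. Of those higher, Dsp was above background in C24 alone, so its call on the high-fat diet rests on signals near the floor. Krt7 was not above background in C12. Basal keratins rose mainly on chow: Krt14 had levels of −1.86 and −1.75 in HF24, 1.46 and 1.43 in C24, −3.51 and −3.72 in HF12, and −4.43 and −3.80 in C12, a change of 1.81 on the high-fat diet and 5.57 on chow, and Krt5 changed by 1.34 on the high-fat diet and 5.09 on chow. The summed level of the list was 6.80 to 7.18 in HF24 and 15.8 to 16.3 in C24, against 6.94 to 7.17 in HF12 and 6.01 to 6.32 in C12, so the high-fat sums did not separate by time. Against 12.6% of all features, 5 of 12 lymphocyte genes were higher (2 among genes above background on all arrays). They included the granule protease Gzmb, which was not above background in either 12-week group and rose at least 11.9-fold on the high-fat diet and 4.99-fold on chow. Jchain, not on the list, the joining chain of secreted antibodies, rose at least 10.0-fold and 19.1-fold. The macrophage list moved in opposite directions on the diets. Of its 23 genes 16 were lower on the high-fat diet (24.4% of all features were) and 21 higher on chow (23.9%), and 3, C1qa, C1qc and Aif1, were higher on both. Macrophage sums were 526 to 530 in HF24, 284 in both C24 arrays, 689 to 694 in HF12 and 108 to 110 in C12.

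Secreted inflammatory genes were the list with the most members higher on both diets. Of 26 measured, 22 were higher at 24 weeks and 0 lower, with a median change of 1.30 over both diets, 1.07 on the high-fat diet and 1.27 on chow. Csf2, Cxcl2 and Il1b, which passed the background filter through the 24-week groups alone, are among the 22. Among genes above background on all arrays 19 of 23 were higher and 0 lower, with a median of 1.26. Interleukin 6 had levels of 3.47 and 3.56 in HF24, 4.26 and 4.29 in C24, 1.77 and 1.86 in HF12, and 2.42 and 2.19 in C12, a change of 1.83 ± 0.07 (SE; limma adjusted p = 1.01e-05). Cxcl1, a neutrophil-attracting chemokine, had levels of 1.66 and 1.81 in HF24, 2.80 and 2.66 in C24, −0.28 and −0.17 in HF12, and 0.49 and 0.43 in C12, a change of 2.11 ± 0.06 (SE; limma adjusted p = 4.77e-06). Ptgs2, the inducible prostaglandin synthase, had levels of 1.27 and 1.33 in HF24, 1.96 and 1.89 in C24, −1.03 and −1.07 in HF12, and −0.59 and −0.83 in C12. In each of these 3 genes the C24 arrays were highest and the HF12 arrays lowest, and no 12-week array reached a 24-week array. The difference between the diets' changes was not called in any of them, with limma adjusted p values of 0.179, 0.108 and 0.155.

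Tnf, an early inflammatory cytokine, had levels of 0.28 and 0.19 in HF24, −0.58 and −0.39 in C24, −1.21 and −1.30 in HF12, and −4.25 and −4.31 in C12, and its change was larger on chow: 1.49 on the high-fat diet and 3.80 on chow. Cxcl2, a chemokine close to Cxcl1, was not above background at 12 weeks and rose at least 3.96-fold on the high-fat diet and 3.40-fold on chow. Nfkbia, the inhibitor that NF-kB itself induces, had levels of 4.58 and 4.69 in HF24, 4.60 and 4.53 in C24, 3.71 and 3.70 in HF12, and 3.74 and 3.69 in C12, a change of 0.89 ± 0.04 (SE; limma adjusted p = 3.49e-05). Cxcl2 and Nfkbia, and Hspa5, Creld2 and Asns below, were chosen after their values were seen. Genes known from activated myeloid cells that are not on the list rose too. Acod1, which makes itaconate, had levels of 2.59 and 2.57 in HF24, 2.07 and 2.01 in C24, −2.70 and −2.56 in HF12, and −4.52 and −4.74 in C12, a change of 5.94 ± 0.06 (SE; limma adjusted p = 2.54e-07). The monocyte chemokine Ccl12 changed by 2.37 on the high-fat diet and 5.45 on chow. Gpr84, a receptor for medium-chain fatty acids, changed by 1.85 on the high-fat diet and 4.18 on chow, but its levels overlapped between times because 1 HF12 array exceeded 1 C24 array. Acod1, Ccl12 and Gpr84 are known from macrophages, whose marker sums rank the groups in another order (HF12 highest, C12 lowest); the part of those cells was not tested.

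Promoters of these genes are shown because NF-kB, a factor that drives Il6 and the Cxcl chemokines, binds a short sequence that can be read there. The NF-kB site was searched on both strands in the 300 bases around the gene start, most of them before it, in RefSeq promoters of the assembly GRCm38.p6. It was found in 5 of 17 higher inflammatory genes with a promoter in that table (Il6, Cxcl1, Cxcl2, Csf1 and Nfkbia), against 0.466% of 27025 genes. A looser form of the site was in 9 of the 17 and in 9.55% of all. It was 1 of 14 motifs searched, and those shown were chosen after the matches were seen. The windows below are 5′ to 3′ on the gene's strand, each ending at the base before the gene start or part way to it, with the match in capitals. They lie at chr5:30013030-30013113 (plus strand) for Il6, chr5:90891134-90891223 (plus strand) for Cxcl1, chr5:90903762-90903851 (plus strand) for Cxcl2 and chr12:55492648-55492716 (minus strand) for Nfkbia; the match of Nfkbia is on the opposite strand. The last base of the match lies 35, 62, 88 and 20 bases before the start, in that order of genes. A match describes letters only.
Il6: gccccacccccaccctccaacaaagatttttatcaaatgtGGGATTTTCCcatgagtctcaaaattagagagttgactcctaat
Cxcl1: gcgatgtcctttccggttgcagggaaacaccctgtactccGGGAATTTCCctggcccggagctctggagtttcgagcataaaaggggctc
Cxcl2: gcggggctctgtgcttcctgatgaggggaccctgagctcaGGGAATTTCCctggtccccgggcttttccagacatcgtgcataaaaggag
Nfkbia: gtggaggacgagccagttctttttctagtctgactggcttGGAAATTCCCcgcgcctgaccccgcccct

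Of 20 immediate early genes, transcribed within minutes of a stimulus, 12 were higher on both diets and 0 lower, with a median change of 0.74. The orphan receptor Nr4a1 had levels of 3.39 and 3.46 in HF24, 3.998 and 3.94 in C24, 1.23 and 1.28 in HF12, and 1.82 and 1.70 in C12, a change of 2.19 ± 0.05 (SE; limma adjusted p = 1.97e-06). Fosl1, an AP-1 subunit, changed by 1.70 ± 0.09 (SE; limma adjusted p = 3.85e-05), and Myc by 1.17 ± 0.05 (SE; limma adjusted p = 1.79e-05). The difference between the diets was not called for Nr4a1 (limma adjusted p = 0.805) or Fosl1 (0.883).

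**Figure D4:**
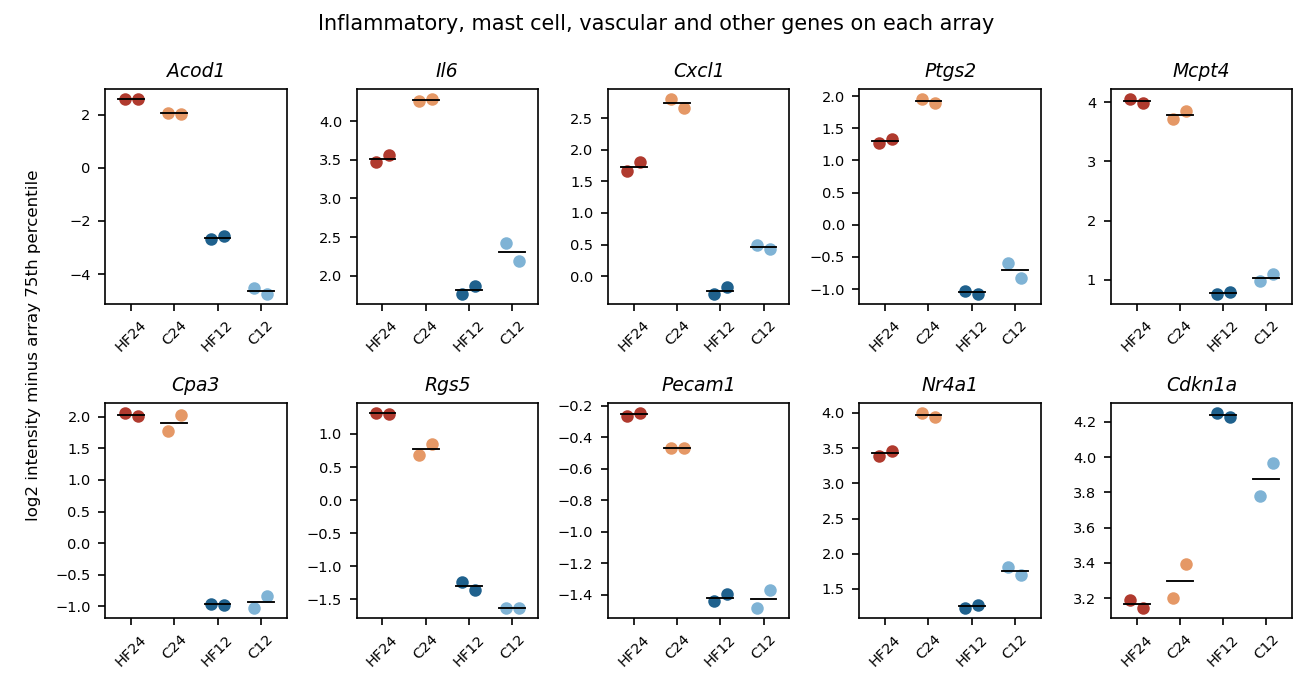
Levels of 10 genes (log2 intensity minus the array's 75th percentile) on each array of HF24, C24, HF12 and C12, with group means as bars. The inflammatory genes Acod1, Il6, Cxcl1 and Ptgs2, the mast cell genes Mcpt4 and Cpa3, the vessel genes Rgs5 and Pecam1, and Nr4a1 are higher, and Cdkn1a lower, on all 24-week arrays than on any 12-week array.

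Contractile and TGF-beta response genes, which mark the myofibroblast-like state of cultured stroma, formed another list with most members higher. Of 25 measured, 19 were higher and 1, the muscle filament gene Des, lower, with a median of 0.61. Myh11, smooth muscle myosin, had levels of 0.11 and 0.08 in HF24, 0.15 and 0.24 in C24, −1.93 and −1.91 in HF12, and −1.90 and −1.81 in C12, a change of 2.03 ± 0.05 (SE; limma adjusted p = 2.2e-06). Ccn1, a matricellular target of YAP, changed by 0.97 ± 0.05 (SE; limma adjusted p = 3.24e-05). Myh11 and several others on the list are also made by the smooth muscle of vessels, whose pericyte sums rose as given above; the part of those cells was not tested.

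Of 30 matrix genes 10 were higher and 3 lower, the lower share being near the 10.8% of all features. The main fibrillar collagen did not pass: Col1a1 had levels of 7.98 and 8.02 in HF24, 7.98 and 8.01 in C24, 7.84 and 7.95 in HF12, and 7.93 and 7.87 in C12, a change of 0.10 ± 0.04 (SE; limma adjusted p = 0.109), which turned to −0.06 and −0.03 under the 2 quantile normalizations. The glycoprotein tenascin C (Tnc) changed by 1.44 ± 0.06 (SE; limma adjusted p = 1.54e-05). The proteoglycan lumican (Lum) had levels of 1.05 and 1.11 in HF24, 3.08 and 2.86 in C24, 2.90 and 3.03 in HF12, and 4.94 and 4.81 in C12, so it fell on each diet by a like amount, −1.88 on the high-fat diet and −1.91 on chow, while the C24 and HF12 arrays overlapped. Tendon and cartilage genes fell or did not pass: of 17, 6 were lower and 0 higher. Among them were Thbs4, a thrombospondin of tendon, with 0.83 and 0.97 in HF24, 1.91 and 1.73 in C24, 4.54 and 4.62 in HF12, and 5.04 and 4.90 in C12, and the tendon factor Scx, with a change of −1.92 ± 0.05 (SE; limma adjusted p = 4.64e-06).

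Glycolysis and hypoxia genes rose in 17 of 28 and fell in 1, with a median of 0.57. The lactate exporter Slc16a3 had levels of 5.29 and 5.28 in HF24, 4.48 and 4.45 in C24, 3.41 and 3.43 in HF12, and 2.36 and 2.37 in C12, a change of 1.98 ± 0.04 (SE; limma adjusted p = 1.1e-06). The glucose transporter Slc2a1 changed by 1.08 ± 0.06 (SE; limma adjusted p = 5.78e-05). Of 29 respiratory chain genes 22 were lower and 0 higher over both diets together (27.7% of all features were lower). On the high-fat diet alone 3 were lower (24.4% of all) and 3 higher, on chow 26 were lower (22.2% of all), and 2 were lower on each. Under quantile normalization without and with normexp the count lower on both was 11 and 12.

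Genes of the unfolded protein response and of its ATF4 branch rose in 14 of 24 and fell in 0, with a median of 0.51. The chaperone Hspa5 (BiP) had levels of 7.16 and 7.19 in HF24, 7.50 and 7.45 in C24, 6.68 and 6.79 in HF12, and 6.92 and 6.82 in C12, a change of 0.52 ± 0.05 (SE; limma adjusted p = 0.000351). Creld2, a secreted endoplasmic reticulum protein, changed by 0.56 ± 0.04 (SE; limma adjusted p = 0.000147). In the ATF4 branch, asparagine synthetase Asns changed by 0.65 ± 0.07 (SE; limma adjusted p = 0.000511), the glutathione-degrading Chac1 by 0.90 ± 0.04 (SE; limma adjusted p = 3.33e-05) and cystathionine gamma-lyase Cth by 1.29 ± 0.05 (SE; limma adjusted p = 1.1e-05). Hspa5 and Creld2 hold the endoplasmic reticulum stress element, found in 2 of 12 higher genes of the list with a promoter and in 0.137% of all. Asns, Chac1 and Herpud1 hold the C/EBP-ATF response element TGATGNAA, found in 3 of 12 and in 4.51% of all. The search is the one described for NF-kB, and the windows lie at chr2:34771985-34772083 (plus strand) for Hspa5, chr15:88819480-88819578 (plus strand) for Creld2, chr6:7693210-7693272 (minus strand) for Asns and chr2:119351009-119351096 (plus strand) for Chac1. Matches of Creld2 and Chac1 are on the opposite strand.
Hspa5: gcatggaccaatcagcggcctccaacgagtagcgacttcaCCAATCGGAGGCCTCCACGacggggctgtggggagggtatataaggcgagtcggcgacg
Creld2: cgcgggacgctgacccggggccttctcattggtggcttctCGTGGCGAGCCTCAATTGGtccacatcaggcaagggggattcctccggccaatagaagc
Asns: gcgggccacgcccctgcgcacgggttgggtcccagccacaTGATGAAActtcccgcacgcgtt
Chac1: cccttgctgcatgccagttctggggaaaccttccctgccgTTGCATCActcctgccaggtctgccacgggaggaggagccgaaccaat

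Ribosomal protein genes rose by small steps in 16 of 26 and fell in 0, with a median of 0.30, but this count rests on the scaling. It was 0 under quantile normalization and 2 after normexp with quantile normalization. Leaving out HF24 replicate 2 gave 5, and leaving out either HF24 replicate 1 or HF12 replicate 1 gave 4.

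Of 29 Wnt pathway genes 13 were lower on both diets and 15 were not called the same way, with a median of −0.40. The 1 higher, Fzd2, was not called without HF12 replicate 1, C24 replicate 2 or either HF24 array. Those lower included extracellular agonists (Rspo1, Rspo2, Rspo3, Wnt4 and Wnt11), receptors (Fzd1 and Fzd4), the antagonist Wif1, Dkk3 of the Dickkopf family, the nuclear factor Lef1, and Axin2, Nkd1 and Nkd2, feedback inhibitors that the pathway induces. Rspo3, a secreted amplifier, had levels of −2.51 and −2.29 in HF24, −0.97 and −0.996 in C24, −0.14 and −0.06 in HF12, and 0.54 and 0.34 in C12, a change of −1.86 ± 0.07 (SE; limma adjusted p = 1.39e-05). Wif1, a secreted Wnt inhibitor, was not above background at 24 weeks and fell at least 1.88-fold on the high-fat diet and 2.79-fold on chow.

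BMP and activin genes were split, 7 of 29 higher and 9 lower, against 12.6% and 10.8% of all features. The activin subunit Inhba had levels of 5.85 and 5.87 in HF24, 5.93 and 5.99 in C24, 4.11 and 4.10 in HF12, and 3.17 and 3.34 in C12, a change of 2.23 ± 0.05 (SE; limma adjusted p = 2.41e-06), and the BMP antagonist Grem1 changed by 2.14 ± 0.04 (SE; limma adjusted p = 1.1e-06). Those lower included the BMP target genes Id1, Id3 and Smad6 and the BMP signal transducer Smad9.

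Imprinted growth genes, active in fetal tissue and in progenitors, were lower in 9 of 18 and higher in 0, with a median of −0.71. Zim1, among the 9, was not above background in HF24 or C24, so it passed the background filter through HF12 and C12 alone. Among genes above background on all arrays 8 of 16 were lower and 0 higher, with a median of −0.71. Dlk1, a preadipocyte surface protein, had levels of −1.95 and −2.11 in HF24, −0.82 and −0.69 in C24, 1.41 and 1.40 in HF12, and 2.23 and 2.06 in C12, a change of −3.17 ± 0.06 (SE; limma adjusted p = 1.58e-06). Insulin-like growth factor 2 (Igf2) had levels of −1.55 and −1.49 in HF24, 0.39 and 0.47 in C24, 1.94 and 1.83 in HF12, and 1.80 and 1.95 in C12, and the RNA H19, which lies beside it, changed by −2.05 ± 0.06 (SE; limma adjusted p = 4.77e-06). Peg3 changed by −2.12 ± 0.11 (SE; limma adjusted p = 4.33e-05). Igf2 and H19 fell farther on the high-fat diet (−3.41 on the high-fat diet and −1.45 on chow for Igf2). Among 17 genes of the insulin-like growth factor axis 5 were higher and 7 lower, against 12.6% and 10.8% of all features. The binding proteins parted: Igfbp3 had levels of 6.14 and 6.18 in HF24, 5.89 and 5.90 in C24, 4.21 and 4.24 in HF12, and 4.09 and 4.12 in C12, a change of 1.86 ± 0.04 (SE; limma adjusted p = 1.47e-06), while Igfbp2 changed by −2.49 ± 0.05 (SE; limma adjusted p = 1.76e-06).

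Genes of senescence and p53 were lower at 24 weeks more often than higher. Of 23 measured, 10 were lower on both diets and 3 higher, with a median of −0.27. The summed level, which is weighted toward bright probes, went the other way. It was 600 to 608 in HF24, 615 to 621 in C24, 478 to 510 in HF12 and 492 to 493 in C12. The 3 higher genes are a share near the 12.6% of all features. Cdkn1a (p21), the p53 target that stops the cell cycle, had levels of 3.19 and 3.14 in HF24, 3.20 and 3.40 in C24, 4.25 and 4.23 in HF12, and 3.78 and 3.97 in C12, a change of −0.82 ± 0.07 (SE; limma adjusted p = 0.000212). Cdkn2b (p15) had levels of 1.26 and 1.34 in HF24, 1.88 and 1.92 in C24, 2.96 and 2.94 in HF12, and 2.53 and 2.45 in C12, a change of −1.12 ± 0.04 (SE; limma adjusted p = 1.34e-05). Trp53inp1, another p53 target, changed by −1.34 ± 0.04 (SE; limma adjusted p = 5.93e-06), and Sesn1, Phlda3, Ccng1, Zmat3, Gadd45a and Eda2r, also p53 targets, were lower too. All 24-week arrays were below all 12-week arrays for Cdkn1a, Cdkn2b and Trp53inp1. The 3 higher included Plaur, the urokinase receptor, with 1.22 ± 0.05 (SE; limma adjusted p = 1.55e-05), and Lmnb1, a nuclear lamin whose loss is a usual sign of senescence.

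Cdkn2a, the INK4a locus, was no member. Its levels were 0.27 and 0.24 in HF24, 1.17 and 1.0 in C24, 1.33 and 1.55 in HF12, and 1.18 and 1.11 in C12, so the HF24 arrays were lowest, the HF12 arrays highest, and the C24 and C12 arrays overlapped. The change was −1.18 on the high-fat diet and −0.06 on chow, and the chow change was not called (limma adjusted p = 0.668).

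Mitotic genes had 0 of 28 called the same way on both diets. On the high-fat diet 25 were higher (22.5% of all features were) and on chow 21 were lower (22.2%), and the difference between the diets was called in all 28 (29.9% of all features). Mki67, the proliferation antigen, had levels of 4.18 and 4.16 in HF24, 3.18 and 3.28 in C24, 3.91 and 3.94 in HF12, and 3.51 and 3.59 in C12, and its change over both diets was −0.03 ± 0.04 (SE; limma adjusted p = 0.532). Of 28 genes of DNA replication and the G1/S transition 7 were higher on both diets, against 12.6% of all features. That count was 2 without C24 replicate 1 and 4 without C12 replicate 1, and 3 when each diet was fitted on its own arrays.

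For the remaining lists, the shares over all features were 12.6% higher on both diets and 10.8% lower. Of 29 growth and angiogenic factors 12 were higher, including Vegfa, Hbegf and Pgf, and 6 lower, including Hgf and Angpt1. Among 31 matrix proteases and crosslinking enzymes 11 were higher and 4 lower, the lower share being near that of all features. Class II antigen presentation genes (H2-Aa, H2-Ab1, H2-Eb1 and Cd74) were the 4 higher of 20 genes of antigen presentation. Interferon response genes were higher in 6 of 28 and lower in 1. Sterol synthesis genes were lower in 7 of 22 and higher in 2. The lower count was 3 without HF12 replicate 1 or HF24 replicate 2, 4 without HF24 replicate 1, and 11 to 13 under 5 other settings. The higher count was 0 without C12 replicate 2, HF12 replicate 1 or HF24 replicate 2. The stromal list itself had 5 of 23 genes higher and 1 (Gdf10) lower, and 3 higher without C24 replicate 2. Lists with at least 9 measured members are drawn in the plot of list shares.

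**Figure D5:**
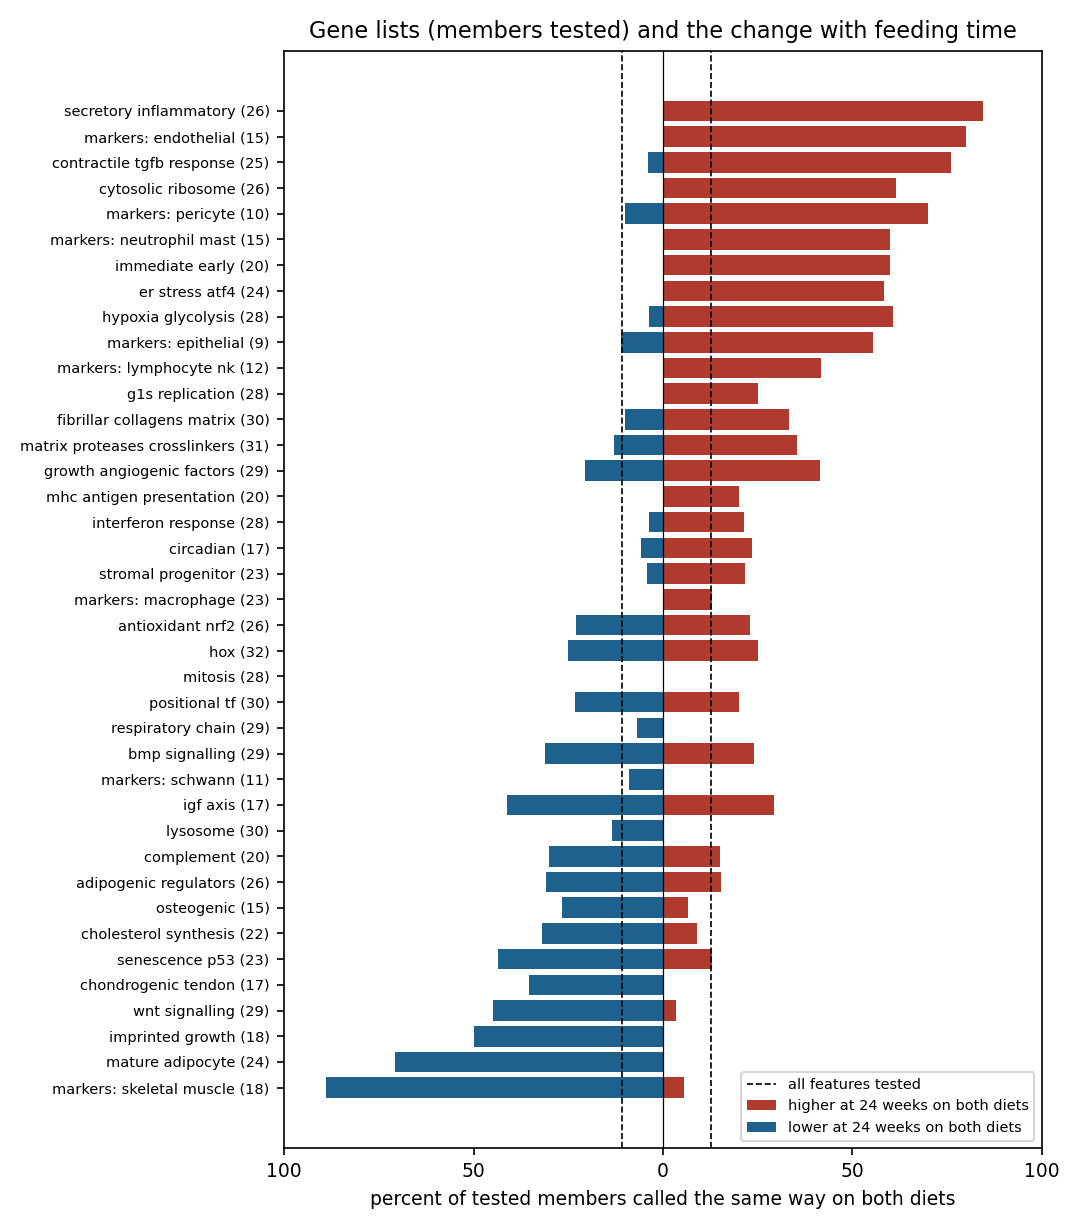
Share of each list's measured members (number in brackets) called higher (red, to the right) or lower (blue, to the left) at 24 weeks on both diets, in percent; dashed lines mark the shares over all 29585 features, 12.6% higher and 10.8% lower. Secreted inflammatory genes (22 of 26) are at the top, and adipocyte genes (17 of 24) and skeletal muscle markers (16 of 18) at the bottom. The shares include genes that were not above background on some arrays. The ribosome bar disappears under quantile normalization.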

How the data were processed

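Total RNA from 8 samples was labelled with Cy3 and hybridised to a one-colour Agilent 8x60K mouse array, per the labels' protocols. The deposited processed intensity is a spot's brightness after background subtraction and spatial detrending within its array by Agilent Feature Extraction 11.0.1.1, per the file headers and the submitters' processing notes. Each spot's unprocessed median intensity and its local background were also deposited. The value table the authors deposited holds log2 values for 38475 probes, and those matched differ from log2 of the processed intensity by 1 constant per array, −9.99 to −9.79; the rule behind that constant is not given in the sources used here.

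From 59305 spots that were not controls, covering 56605 probes, 192 probes with an outlier flag were left out. Repeat spots were averaged as log2 values, from which the 75th percentile of the array was taken away. Probes well above background on both arrays of at least 1 group were kept (37650), and the brightest kept probe stood for a gene, which gave 29585 features. The deposited flag for well above background was used. Transcript accessions were matched to RefSeq names of GRCm38.p6, giving 1 symbol to 32907 probes (58.3%) and none to 23506. The headers name another build, mm9, so coordinates are printed for RefSeq promoters alone.

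The 8 arrays were fitted together with limma 3.58.1 (R 4.3.3), using a mean for each group; there were 4 residual and 1.90 prior degrees of freedom. The two-sided p-values were adjusted over all features by Benjamini-Hochberg. A member was called over both diets and on each diet in 1 direction. Python 3.11.15 with pandas 2.3.3 and matplotlib 3.10.9 read and drew the data. The number of arrays limits the precision.

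Which genes are named followed a rule: the 12 highest and 12 lowest members above background in all groups, the 6 highest and 6 lowest others, up to 6 members of each of 41 lists each way by smallest p, and Cdkn1a, Cdkn2a, Cdkn2b, Il6, Pparg, Mki67 and Col1a1; exceptions are marked. A few genes that the rule or the lists include are not reported here. Other list members appear by name alone, beside their list's count, and were picked after their values were seen. Members and lists were chosen with earlier results of these data known. Of 82 named genes 20 had several probes. None had probes that differed in sign, but sizes could differ: the other probe gave −4.94 for Adrb3 (printed probe −8.40), −1.86 for Gpd1 (−4.25) and 1.12 for Tnf (2.64). Alternatives were other normalizations, the deposited value table, other filters, every kept probe, an intensity trend, a replicate block, an additive model, each diet fitted alone, and leaving out each array; a common floor was added after seeing the data.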

Additional observations from a re-analysis of the deposited data

Results flagged for a closer look

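The named genes below were picked out because the time change differed between the diets by the test of the difference itself, with a limma adjusted p under 0.05. They are 51 of the 82 genes named, where 29.9% of all features passed that test; 31 had the larger change on chow and 20 on the high-fat diet. Each value is the time change on the high-fat diet minus that on chow, in log2 units, from 2 arrays per group, so a positive value in a gene that fell means a longer fall on chow. For genes not above background in a group the difference depends on the floor of that array.

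Among adipocyte genes the difference was −2.64 in Cfd, 3.36 in Adrb3, 1.71 in Plin1, 3.56 in Cidec, 2.48 in Car3, 3.31 in Adig, 2.07 in Gpd1, 1.61 in Pparg, 0.66 in Cebpa and 1.21 in Ppargc1a. The fall of Cfd was thus longer on the high-fat diet and the other falls longer on chow, where 12-week levels were highest. The Mup genes gave 5.47 in Mup1 and 5.48 in Mup18. For positional genes the differences were −2.04 in Hoxc10, 0.72 in Hoxa10, 0.64 in Hoxc5, 0.49 in Hoxa2, −1.56 in Pitx1 and 0.69 in Tbx5, so Hoxc10 and Pitx1 rose more on chow and Hoxa10 more on the high-fat diet.

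Muscle genes fell farther on the high-fat diet, with −1.48 in Sln and −1.81 in Tnnc2. Mast cell genes rose slightly more there, with 0.82 in Hdc, 0.49 in Mcpt4 and 0.47 in Cma1. The vessel genes differed by 1.09 in Cldn5 and −0.87 in Ndufa4l2. Keratins rose more on chow, with −3.76 in Krt14 and −3.75 in Krt5, and the granule protease gene more on the high-fat diet, with 2.66 in Gzmb.

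Myeloid and inflammatory genes mostly rose more on chow: −1.46 in Acod1, −3.08 in Ccl12, −2.33 in Gpr84 and −2.30 in Tnf, with the opposite sign of 1.31 in Cxcl2. Smaller differences, also toward a larger rise on chow, were −0.45 in Myc, −0.65 in Ccn1, −0.73 in Chac1, −0.98 in Cth, −0.73 in Grem1, −0.95 in Inhba and −0.70 in Plaur. Genes that fell farther on the high-fat diet were −0.88 in Rspo3, −1.89 in Igfbp2, −1.96 in Igf2, −0.53 in Dlk1, −1.85 in H19, −0.50 in Cdkn1a, −1.12 in Cdkn2a, −1.06 in Cdkn2b, −0.53 in Thbs4 and −0.94 in Scx. Mki67 rose on the high-fat diet and fell on chow, a difference of 0.56 in Mki67.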

How the results depend on the processing

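Of 82 named genes, 79 kept their direction and their calls under every alternative in which they were tested. Genes not above background on every array were not tested under the filter that requires it. In the additive model only the call over both diets was compared. The change of Col1a1 turned to −0.0617 after normexp with quantile normalization and −0.0339 under quantile normalization, with no call in either. Cdkn2a lost its call over both diets in the additive model, which has no time by diet term (adjusted p = 0.0751), and Tbx4 lost the call on both diets in 5 settings, among them the replicate block (largest adjusted p = 0.0520). With no filter on dim probes, which tests 45477 features, the counts were 15152 higher over both diets, 12973 higher on chow, 13144 higher on the high-fat diet, and 12257 called the same way on both (9334 higher). The additive model called 10668 features, 5205 of them lower. Requiring at least 2-fold on each diet left 1137, of which 359 were higher and 778 lower. Of those above background on all 8 arrays, 252 were higher and 356 lower. Leaving out each array in turn gave 4979 to 6081 features called the same way on both diets (2513 to 3289 higher and 2319 to 2869 lower), and 3620 of the 6925 (52.3%) were called each time. Calls higher on the high-fat diet ranged from 4026 to 6692, with 4026 without HF12 replicate 1 and 4429 without HF24 replicate 1. Calls where the time change was higher on the high-fat diet than on chow ranged from 2656 to 3479, the lowest without HF12 replicate 1. Other counts over all features stayed within 1.5 times of the values given. Among lists, the single calls against a list's direction (Gdf10, Actc1, Trp63, Fzd2, and 1 lower gene each of the interferon and glycolysis lists) were lost, giving a count of 0, in at least 1 fit that left out an array. The respiratory chain count of 2 was 1 without HF12 replicate 2 or HF24 replicate 1, and larger list counts that moved by more are given beside their list. Replicate numbers did not pair the samples: correlations of deviations between same-numbered arrays were −0.08 to 0.17. With the replicate number as a block 6243 features were called the same way, 6097 of them (88.0%) among the 6925. The median change over all features lay between −0.01 and 0.03 under each scaling and filter compared. Values near background limit the dim genes, for which bounds are given.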
